A study of Mus musculus with 2 samples.

Results

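Endothelial cells of the mouse adrenal gland that carried transcripts of major histocompatibility complex (MHC) class II genes were picked from 2 single-cell libraries by a counting rule. A cell was a member when it held at least 2 unique molecular identifiers (UMIs, each standing for 1 captured transcript) summed over Cd74, H2-Aa, H2-Ab1 and H2-Eb1, at least 2 summed over the endothelial genes Pecam1, Cdh5 and Kdr, and none of 8 leukocyte genes (Lyz2, C1qa, C1qb, C1qc, Tyrobp, Ptprc, Cd79a and Igkc). The cell also had to hold at least 500 UMIs and 300 genes, with at most 15% mitochondrial UMIs. The rule found 309 members among 10083 barcodes, 32 in the WT library and 277 in the VEGF/LysM library. The 5579 WT and 3171 VEGF/LysM cells that met every part of the rule but held 0 or 1 class II UMI are called the other endothelial cells.

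Both libraries came from female mice aged 12 weeks, 1 of wild-type (WT) genotype and 1 of the genotype labelled VEGF/LysM, and the study asked what VEGF-A made by macrophages does to the endothelial cells of the gland. LysM is an older name of Lyz2, a gene of macrophages and other myeloid cells and 1 of the 8 that barred a cell. The sources used here give neither the alleles behind the label nor the number of animals pooled in each library. Viable CD31+ CD45- cells were sorted from digested glands in the same way for both groups, so leukocytes had been gated against before sequencing. With 1 library per group, every difference below is between 2 libraries and has no replicate check. The 95% intervals are exact, from binomial or Poisson counts, and cover counting error only, and they take no account of UMIs that come from the same cell.

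MHC class II molecules display peptides from engulfed proteins to CD4+ T cells. They are typical of dendritic cells, macrophages and B cells, and endothelial cells can be induced to make them by interferon gamma. H2-Aa, H2-Ab1 and H2-Eb1 encode chains of the class II dimers. Cd74 encodes the invariant chain that escorts them, H2-DMa and H2-DMb1 the dimer that helps load the peptide, and Ciita the coactivator that switches the whole set on.

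Members made up 0.570% of the WT endothelial cells (32 of 5611, 95% interval 0.390 to 0.804%). In the VEGF/LysM library they made up 8.03% (277 of 3448, 7.15 to 8.99%), and the intervals did not overlap. At a limit of 1 class II UMI the shares were 4.26% and 17.4%. Depth moved with this difference: the median was 1209 UMIs in the other WT cells and 2331 in the other VEGF/LysM cells. Members themselves were deeper than the others, with medians of 1572 UMIs in WT and 2728 in VEGF/LysM. Cells were therefore also thinned at random to 1000 UMIs, with shallower cells left out. The thinned shares were 0.546% in WT (20 of 3662, 0.334 to 0.842%) and 2.93% in VEGF/LysM (90 of 3069, 2.36 to 3.59%). Thinning can also remove a leukocyte UMI and so let a barred cell in. With the leukocyte genes read before thinning, 15 of 3636 WT cells (0.413%) and 80 of 3012 VEGF/LysM cells (2.66%) were members. The direction was thus the same at equal depth, and the gap was smaller.

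The share was higher in deeper cells of the VEGF/LysM library, from 0.549% of cells with 500 to 1000 UMIs (1 of 182) to 11.7% of cells with at least 4000 UMIs (52 of 445). Between 1500 and 2500 UMIs, 89 of 1259 VEGF/LysM cells (7.07%) and 9 of 1381 WT cells (0.652%) were members. Between 2500 and 4000 UMIs the shares were 10.3% (113 of 1102) and 2.51% (8 of 319). Below 1000 UMIs they could not be told apart, at 0.549% and 0.490%.

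**Figure D1:**
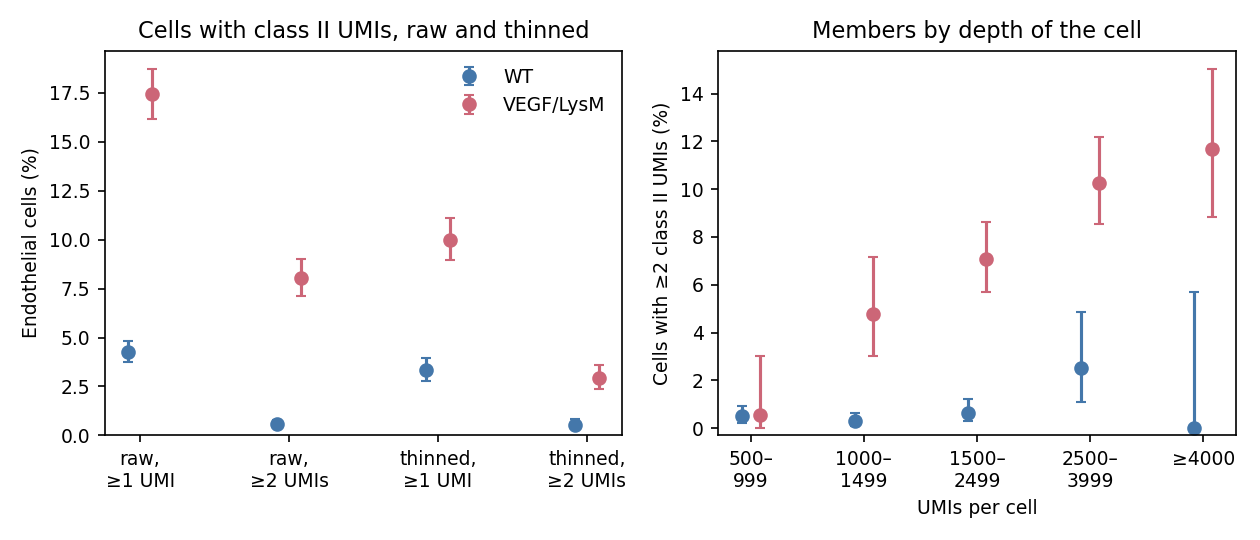
Left, percent of endothelial cells with at least 1 or at least 2 class II UMIs in the WT and VEGF/LysM libraries, on raw counts and after thinning to 1000 UMIs. Right, percent of cells that were members by UMIs per cell. Points are 1 library each and bars are exact binomial 95% intervals. The thinned shares with at least 2 UMIs are 0.546% and 2.93%.

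The counts per cell were low, and most members lay close to the limit. In WT, 20 of 32 members held exactly 2 class II UMIs, 8 held 3, 1 held 4 and 3 held 6 or more, with a highest count of 8. In VEGF/LysM, 135 of 277 members held 2, 63 held 3, 27 held 4, 17 held 5 and 35 held 6 or more, with a highest count of 17. Just outside the limit were 207 WT and 324 VEGF/LysM cells with 1 class II UMI. Only 4 WT and 3 VEGF/LysM members sat at the limit of 2 endothelial UMIs, and the median was 7 and 12. Cells that met the class II and endothelial limits but were barred by a leukocyte gene numbered 53 in WT and 69 in VEGF/LysM. Their median class II counts were 7 and 11 UMIs, against 2 and 3 in the members.

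The rule summed 4 genes, so how they were spread over a cell is a description of what it picked. In VEGF/LysM, 65 of 277 members held UMIs of 1 of the 4 genes, 144 of 2, 49 of 3 and 19 of all 4. In WT, 11 of 32 held 1, 16 held 2, 3 held 3 and 2 held all 4. The 942 class II UMIs of the VEGF/LysM members were 394 of Cd74, 228 of H2-Ab1, 186 of H2-Eb1 and 134 of H2-Aa. The 89 UMIs of the WT members were 29, 20, 21 and 19 of the same genes. These are UMI counts with no correction for transcript length. In cells with a single class II UMI the mixture was different. That UMI was H2-Ab1 in 107 of the 207 WT cells (51.7%, 44.7 to 58.7%), against 22.5% of the class II UMIs of WT members. In VEGF/LysM it was H2-Ab1 in 141 of 324 cells (43.5%), against 24.2% in members. In the class II cells with a leukocyte gene (91 in VEGF/LysM, with or without endothelial genes) H2-Ab1 was 15.5% and Cd74 46.0%.

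Free RNA in the droplets can give a cell a class II UMI. Adrenocortical-type cells (at least 20 UMIs of 6 steroid genes, no leukocyte gene) should lack class II, and 21 of them were found in VEGF/LysM at a median depth of 11804 UMIs. At least 2 class II UMIs were held by 2 of the 21 (9.52%, 1.17 to 30.4%), and after thinning by 1 of 21 (4.76%, 0.120 to 23.8%). At least 1 was held by 3 of 21 (14.3%, 3.05 to 36.3%), against 17.4% of the endothelial cells, and after thinning by 2 of 21 (9.52%), against 10.0% (8.96 to 11.1%). With at least 2 UMIs the endothelial shares (8.03%, and 2.93% thinned) were below those of these few cells, and with at least 1 UMI they were inside their intervals. The shares are therefore not read as expression by themselves. In WT, 0 of 12 such cells held a class II UMI, which allows a share of up to 25%. The part of free RNA was not tested further.

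The members carried the genes of endothelial cells. Over 14 pan-endothelial genes that the rule did not use, the median log2 ratio of members over other endothelial cells was 0.04 in VEGF/LysM and -0.06 in WT, beside -0.02 and -0.05 over all measured genes. Flt1, a VEGF receptor, stood at 3548 UMIs per 1000000 UMIs (CPM) in VEGF/LysM members and 3260 in the others. Egfl7, a secreted endothelial factor, stood at 1735 and 1794 CPM. A UMI of Egfl7 was found in 271 of 277 VEGF/LysM members and 28 of 32 WT members. Cldn5, a tight-junction gene, was lower, at 442 against 711 CPM in VEGF/LysM (log2 -0.69, -0.84 to -0.54) and 412 against 591 CPM in WT (-0.52, -1.18 to 0.07). A gene was taken as measured when equal levels would give the members at least 10 UMIs, and as called when it differed at least 1.5-fold with an interval that excluded 1.

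Among leukocyte genes outside the rule, a chosen 25 gave few UMIs in members. Of a list of 30 such genes, 25 were left after dropping Fcer1g, Mrc1, Cd14, Pf4 and Lst1, which the other endothelial cells also carried, a choice made after the values were seen. The 25 genes gave 54 UMIs in the VEGF/LysM members, or 5.73 per 100 class II UMIs, and 1985 UMIs in the 91 class II cells with a leukocyte gene, or 38.0 per 100. In WT the values were 6.74 (6 UMIs) and 42.4 per 100. The cells with a leukocyte gene were picked by a gene that members had to lack. Every contrast with them is therefore partly set by the rule and is given as a description. In CPM the VEGF/LysM members stood at 61.4 and the other endothelial cells at 12.7. At least 1 of the 25 genes was found in 14 of 277 VEGF/LysM members (5.05%) and 3 of 32 WT members, against 2.14% and 1.29% of the other cells. Of these, Cd52 stood at 19.3 CPM in VEGF/LysM members and 1.92 in the others, and Laptm5 at 12.5 and 2.52 CPM. Csf1r, the macrophage growth factor receptor, had 0 UMIs in VEGF/LysM members and 146 in the class II cells with a leukocyte gene. The B-cell genes Cd79b and Ms4a1 and the dendritic-cell genes Itgax and Flt3 had 0 in members too, and 9 to 19 each in those cells. Ctss, the protease that trims the invariant chain in myeloid cells, had 1 UMI in VEGF/LysM members and 446 in the class II cells with a leukocyte gene. Over all 30 genes the summed level was 320 CPM in VEGF/LysM members and 244 in the others, and 304 and 265 CPM in WT. At least 1 of the 30 was found in 128 of 277 VEGF/LysM members (46.2%), against 33.1% of the others. In WT it was 9 of 32 members (28.1%), against 25.2%. The part of these UMIs in the results below was not tested beyond leaving their cells out. A single VEGF/LysM member held 7 UMIs of the T-cell receptor gene Trbc2. It also held 8 of the 17 Cd52 UMIs and 6 of the 11 Laptm5 UMIs of that library's members. In WT, 1 member with 8 class II UMIs held both Csf1r UMIs of that library's members.

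Ciita and the H2-DM genes, which the rule had not used, stood higher in VEGF/LysM members at low counts. Ciita stood at 26.1 CPM in VEGF/LysM members (23 UMIs) and 4.43 in the others (37 UMIs), a log2 difference of 2.56 (1.74 to 3.35). H2-DMa stood at 22.7 and 2.64 CPM (log2 3.11, 2.16 to 4.05), and H2-DMb1 at 39.8 and 5.99 CPM (log2 2.73, 2.06 to 3.38). H2-Ob, part of the dimer that restrains H2-DM, had 6 UMIs in members and 14 in the others (log2 2.02, 0.36 to 3.49). All 4 were below the limit for a measured gene, so none was called. In WT, Ciita had 1 UMI in members, H2-DMa 3 and H2-DMb1 2, and the intervals of Ciita and H2-DMb1 included equal levels. The UMIs were spread over cells: Ciita was found in 19 of 277 members, H2-DMa in 19 and H2-DMb1 in 34. At least 1 of these 3 genes was found in 65 of 277 VEGF/LysM members (23.5%, 18.6 to 28.9%) and 103 of 3171 others (3.25%, 2.66 to 3.93%). In WT it was 5 of 32 (15.6%, 5.28 to 32.8%) and 85 of 5579 (1.52%, 1.22 to 1.88%). The intervals did not overlap in either library. Without the members that held any of the 25 leukocyte genes, the log2 ratios in VEGF/LysM were 2.65 for Ciita, 3.18 for H2-DMa and 2.83 for H2-DMb1. With the rule read on thinned cells 90 cells were members, and members of the raw rule could fall in the comparison group. With the leukocyte genes read before thinning 80 were members. Some of the 90 thus held a barred leukocyte gene in the unthinned counts summed here. In the class II cells with a leukocyte gene H2-DMa stood at 121 CPM and H2-DMb1 at 156. Over the 90 cells Ciita was -0.47 (-5.80 to 2.07), while H2-DMa and H2-DMb1 were 3.28 and 3.16. Ratios of the 80 alone were not computed. The cause of the Ciita change was not tested.

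Few genes of the remaining machinery could be measured. Of the 15 listed machinery genes, 14 were in the files and 4 were measured in VEGF/LysM, with 0 called and a median of 0.08. Over all measured genes there 1.67% were called higher and 3.68% lower, so 0 calls among 4 genes are not read as a result about the list. The lysosomal protease Ctsl stood at 183 against 199 CPM and Lgmn, another lysosomal protease, at 22.7 against 16.5. Of the DNA-binding complex on which Ciita assembles, Rfxap and Rfxank stood at 48.9 against 53.9 and 13.6 against 11.1 CPM. Rfx5, also of that complex and with 13 UMIs in members, stood at 14.8 against 9.95. Ifi30, a reductase of antigen processing, had 2 UMIs in members. H2-DMb2, H2-Oa and H2-Eb2 had 0.

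The same genes were set against class II UMIs, which the rule itself counted, in members and in the class II cells with a leukocyte gene. In VEGF/LysM, Ciita, H2-DMa and H2-DMb1 together gave 8.28 UMIs per 100 class II UMIs in members (78 UMIs) and 3.79 in the cells with a leukocyte gene (198 UMIs). Ctss gave 0.106 and 8.55, and Csf1r 0 and 2.80. The rule parted these sets by leukocyte genes, so the Ctss and Csf1r gaps are partly set by it. In WT the same 3 genes gave 6.74 (6 UMIs) and 5.21 (96 UMIs). The summed level of Ciita, H2-DMa and H2-DMb1 was also higher in cells with more class II UMIs. In VEGF/LysM it was 11.3 CPM in cells with 0 class II UMIs, 26.4 with 1, 66.2 with 2, 110 with 3 or 4 and 108 (64.2 to 171) with 5 or more. In WT it was 10.8 with 0 and 21.6 (8.68 to 44.5) with 1.

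**Figure D2:**
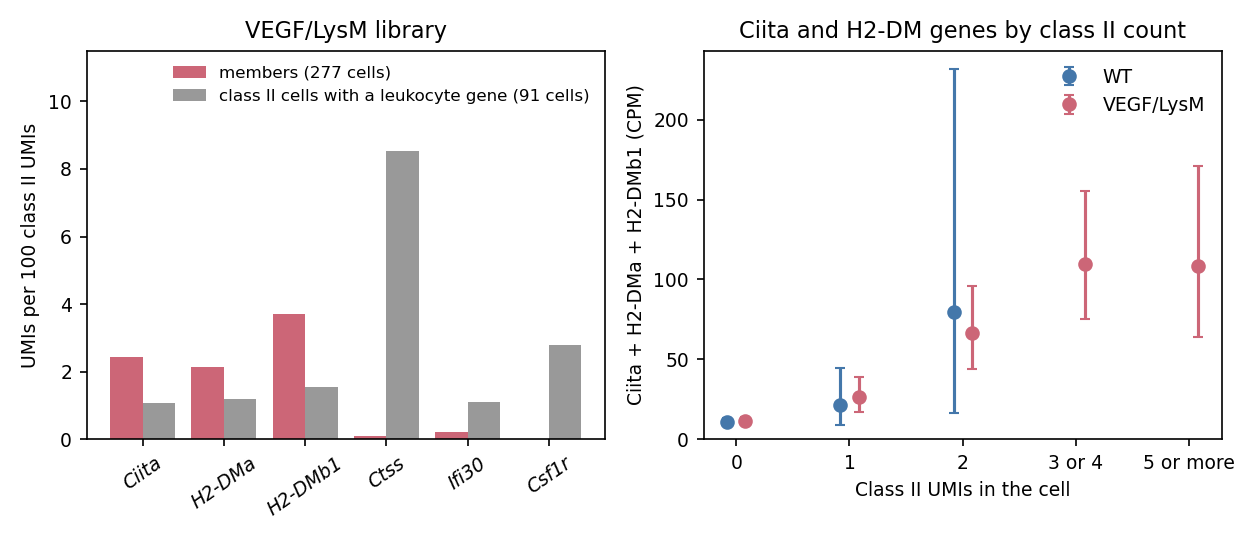
Left, UMIs of Ciita, H2-DMa and H2-DMb1 and of Ctss, Ifi30 and Csf1r per 100 class II UMIs in VEGF/LysM members and in class II cells with a leukocyte gene. Right, summed level of Ciita, H2-DMa and H2-DMb1 in CPM by class II UMIs per cell, with exact Poisson 95% intervals; WT is drawn up to 2 class II UMIs, since 12 WT cells held more. Ctss is at 0.106 in members and 8.55 in the leukocyte-gene cells, sets that the rule parted by leukocyte genes.

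The class II chain genes and the H2-DM genes lie near each other on chromosome 17 (GRCm38/mm10, GENCODE M21). H2-DMa is at 34119541 to 34139101, H2-DMb1 at 34153072 to 34160230, H2-Ab1 at 34257689 to 34269419 and H2-Eb1 at 34305867 to 34316674 on the plus strand, and H2-Aa at 34282744 to 34287823 on the minus strand. Ciita lies on chromosome 16 at 10480059 to 10528418 on the plus strand. Class II promoters are known for an X box, bound by the RFX factors, and a Y box, bound by NF-Y, on which Ciita assembles. The stretches from 110 to 31 bases before the RefSeq start of 3 of these genes are shown because they carry letters of those boxes. The strings GCAAC and TGATTGG were both found in H2-Aa and H2-Eb1, and TGATTGG alone in H2-DMb1. In H2-DMb1 gtaactgatgatgct stands where H2-Eb1 has GCAACtgatgatgct, so the missing string does not mean a missing X box. GENCODE begins H2-DMb1 farther upstream than RefSeq, so that stretch lies inside the GENCODE gene. They are RefSeq's (GRCm38.p6), written 5′ to 3′ in the direction of the gene, with GCAAC (from the X box) and TGATTGG (the Y box, an inverted CCAAT) in capitals. The letters were chosen from textbook boxes after the sequences had been read.
H2-Aa, chr17:34287854-34287933, minus strand: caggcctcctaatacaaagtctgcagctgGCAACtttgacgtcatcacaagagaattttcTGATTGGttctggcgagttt
H2-Eb1, chr17:34305757-34305836, plus strand: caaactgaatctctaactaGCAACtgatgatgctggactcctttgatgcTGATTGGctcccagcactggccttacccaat
H2-DMb1, chr17:34153081-34153160, plus strand: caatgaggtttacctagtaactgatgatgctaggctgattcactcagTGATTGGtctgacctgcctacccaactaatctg
The TGATTGG of H2-Aa begins 50 bases before the start, that of H2-Eb1 61 and that of H2-DMb1 63. Over both strands TGATTGG was found in 2568 of 32851 promoters of the table (7.82%), which run from 250 bases before to 50 after the start, and GCAAC in 35.2%. GCAAC followed by TGATTGG within 20 to 40 bases was found in 67 promoters (0.204%). H2-Aa, H2-Eb1, H2-Oa, H2-Ob and H2-Eb2 were among them, and H2-DMb1 and H2-DMa were not. A match is a description of these letters and not of binding.

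The MHC class I and immunoproteasome genes, which present peptides from inside the cell, were higher in VEGF/LysM members as a group. All 20 listed genes were measured, 20 of 20 had a ratio above 1, and 15 had an interval above 1, against 6.13% of the 9246 genes measured in that library. At the 1.5-fold limit 6 were called, all higher: H2-Q4, H2-Q6, H2-Q7, H2-T23, Tap1 and Psmb8. Over all measured genes 154 were called higher (1.67%) and 340 lower (3.68%). The median log2 ratio of the list was 0.45. B2m, the light chain of class I molecules, stood at 2910 CPM in members and 2175 in the others (log2 0.42, 0.36 to 0.48). The class I heavy chain H2-K1 stood at 2416 and 1671 CPM (0.53, 0.47 to 0.60). H2-Q7 stood at 492 and 277 CPM (0.83, 0.68 to 0.98), and since H2-Q4, H2-Q6 and H2-Q7 are near-identical copies, how reads were split among them is uncertain. Psmb8, an inducible proteasome subunit, stood at 364 and 205 CPM (0.83, 0.65 to 1.00), and Tap1, which pumps peptides into the endoplasmic reticulum, at 94.3 and 59.2 CPM (0.67, 0.32 to 1.01).

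In WT the 32 members held 55877 UMIs, and 7 of the 20 class I genes were measured. Of these 0 were called, in a library where 37 of 1075 measured genes were called higher (3.44%) and 47 lower (4.37%), and the median was 0.11. B2m stood at 2004 CPM in WT members and 1851 in the others (0.11, -0.17 to 0.38), and H2-K1 at 1521 and 1405 (0.11, -0.21 to 0.42). The B2m intervals of the libraries overlapped and those of H2-K1 did not. Whether the member ratios differed between the libraries was not tested.

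Genes induced by interferon gamma did not all lie on the same side. Of 25 listed genes 19 were measured in VEGF/LysM, 10 had an interval above 1, 1 had an interval below 1, and 1 was called, with a median of 0.38. Over all measured genes there 6.13% had an interval above 1, 6.98% had one below 1 and 1.67% were called higher. The called gene was Ifi47, a GTPase, at 59.1 against 37.4 CPM (0.66, 0.21 to 1.09). Irf1, which acts on the Ciita gene, stood at 228 against 162 CPM (0.49, 0.27 to 0.71). Iigp1, the listed gene of highest level here, stood at 423 against 342 CPM (0.31, 0.15 to 0.46). Cxcl9, a T-cell chemokine, went the other way, at 70.4 CPM in members and 102 in the others (-0.54, -0.93 to -0.16). Cxcl10, a chemokine of the same family, had 35 UMIs in members, 16 of them in 1 cell. Of the 8 receptor and signalling genes 0 were called, with a median of 0.13. WT held 2 measured genes of the interferon gamma list, with 0 called.

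Genes of the type I interferon list, antiviral genes for the most part, also had ratios mostly above 1. In VEGF/LysM 28 of 30 genes were measured, 20 had an interval above 1, 4 were called higher and 1 lower, with a median of 0.38. The shares over all measured genes there were 6.13% with an interval above 1, 1.67% called higher and 3.68% lower. Called higher were the nucleic-acid sensor Zbp1 (65.9 against 26.8 CPM, log2 1.30, 0.85 to 1.72), Ifi27l2a (0.66), Mx2 (0.64) and Oasl2 (0.61). Usp18, which dampens the response, was called lower (28.4 against 43.5 CPM, -0.61, -1.26 to -0.03). A Zbp1 UMI was found in 47 of 277 members (17.0%) and 204 of 3171 others (6.43%), and Zbp1 was named after its value was seen. Rsad2, an antiviral enzyme, stood at 1529 against 1149 CPM in VEGF/LysM (0.41, 0.33 to 0.50) and at 1664 against 1262 CPM in WT (0.40, 0.09 to 0.69). Ifitm3 and Bst2, which restrict viral entry and release, stood at 0.35 and 0.45 in VEGF/LysM and at 0.37 and 0.44 in WT, where both intervals included 0. The WT median over 7 measured genes was 0.20, with 0 called.

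**Figure D3:**
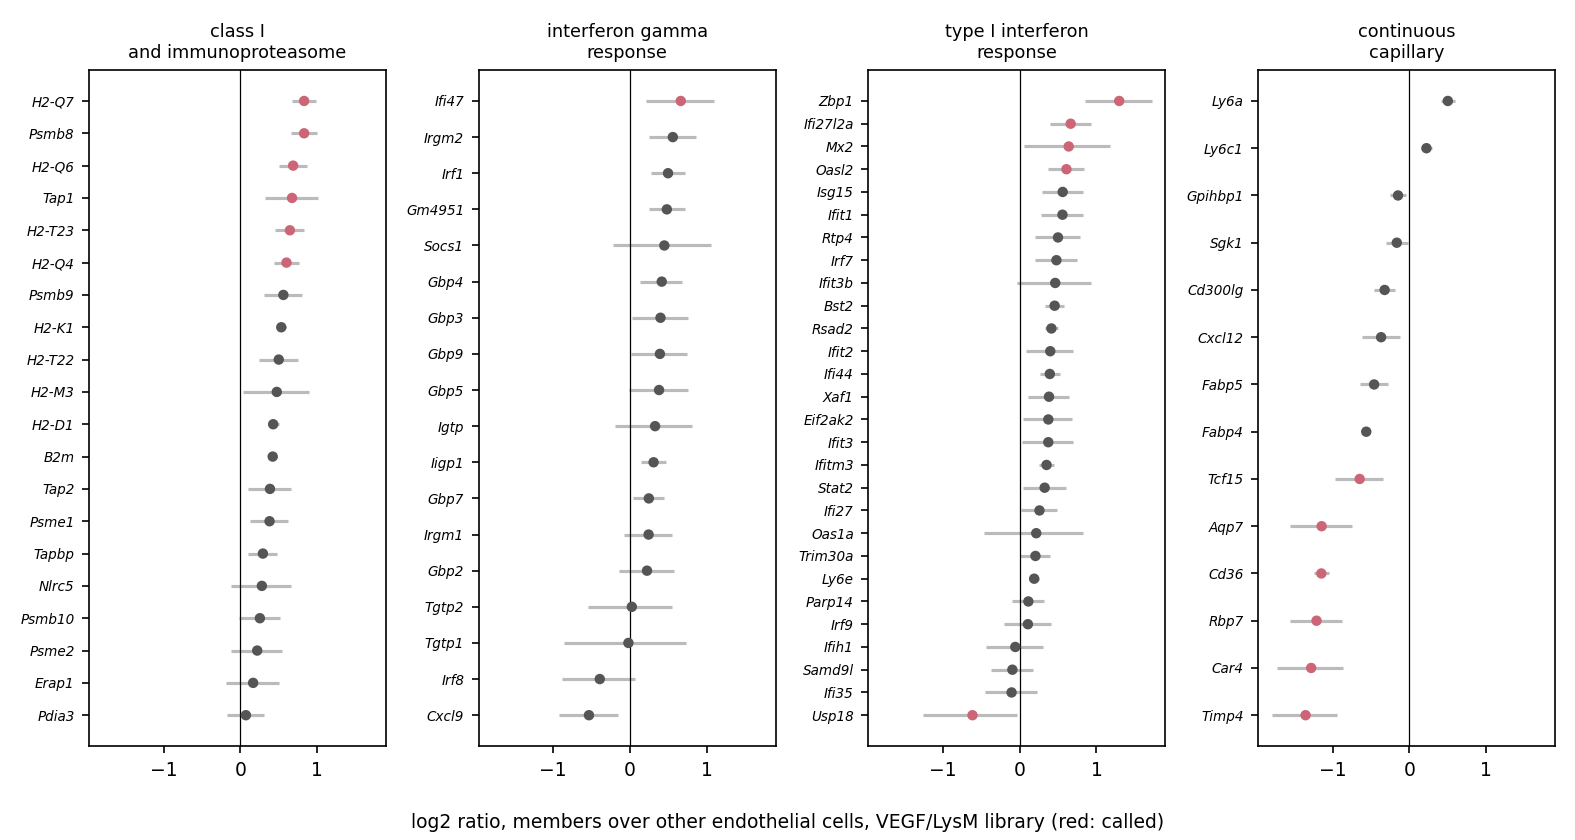
Log2 ratio of VEGF/LysM members over that library's other endothelial cells, for measured genes of 4 lists (1 gene is not drawn), with exact 95% intervals. Red points were called (at least 1.5-fold, interval excluding 1). The 20 class I genes all lie above 0, and 12 of 14 continuous capillary genes lie below it.

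Within the VEGF/LysM library these levels followed the class II count of the cell. The summed class I list stood at 7738 CPM in cells with 0 class II UMIs, 9156 with 1, 10389 with 2, 11152 with 3 or 4 and 12426 (11895 to 12973) with 5 or more. Psmb8 went from 198 to 252, 279, 395 and 524 CPM over the same groups. The type I interferon list went from 7177 to 8212, 8589, 9387 and 9957 CPM. The interferon gamma list was less regular, at 1833, 1987, 2316, 2046 and 2775 CPM. In WT the class I list stood at 6565, 6674 and 6246 CPM in cells with 0, 1 and 2 class II UMIs. Psmb8 stood at 128, 120 and 132 and the interferon gamma list at 1772, 1943 and 1482. The WT type I list stood at 7324 (7263 to 7386), 8232 (7923 to 8550) and 7807, so it too was higher with 1 UMI than with 0. No steady order was seen in WT at 2 UMIs or fewer. With 3 or 4 UMIs (9 cells) and 5 or more (3 cells) the WT class I list stood at 8530 and 10127 (7629 to 13182). The type I list stood at 8135 and 7733 in these few cells. Cells with 1 class II UMI are not members, and in VEGF/LysM they too stood above cells with 0 in each of these values. Depth moved along with the count, from a median of 2315 UMIs at 0 to 2966.5 at 5 or more. Against other cells weighted to the members' mix of depths, the class I median was 0.49, the type I median 0.38 and the interferon gamma median 0.36. Without the members that held any of the 25 leukocyte genes the medians were 0.47, 0.41 and 0.39 in the same order. With the rule on thinned cells the class I median was 0.64, while the type I median was 0.06 and the interferon gamma median 0.15. Some of those members held a barred leukocyte gene before thinning, and the part of such cells in these medians was not tested.

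**Figure D4:**
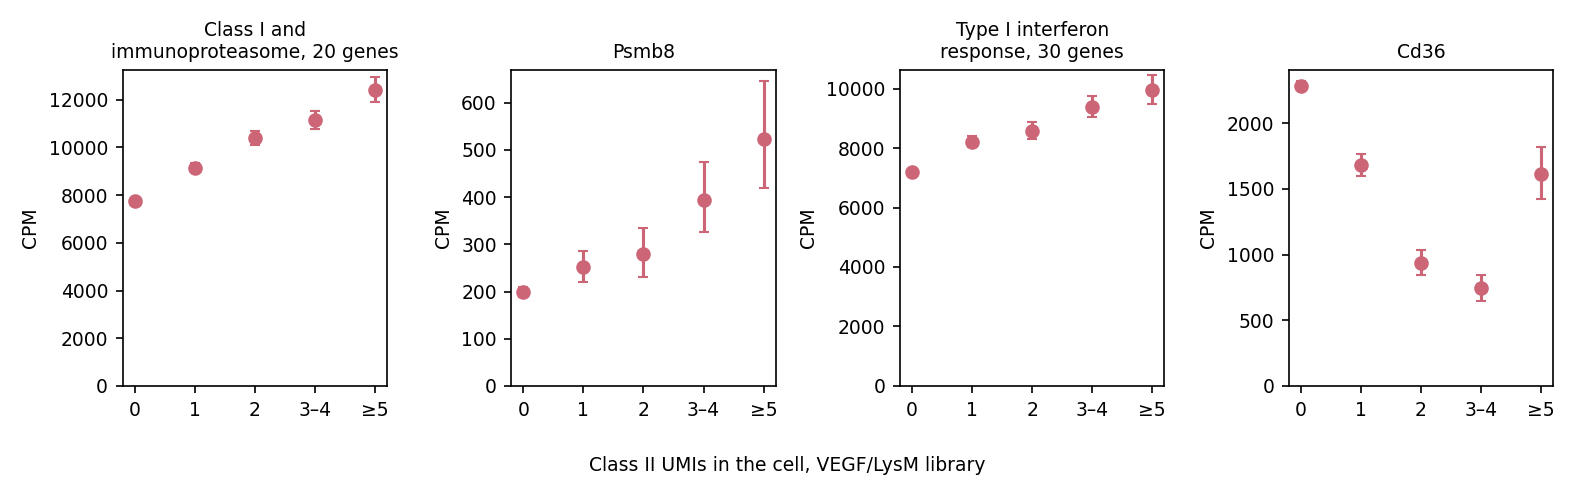
Summed CPM of the class I list, Psmb8, the type I interferon list and Cd36 in VEGF/LysM endothelial cells by class II UMIs per cell, with exact Poisson 95% intervals. The class I list goes from 7738 to 12426 CPM. Cd36 has its lowest value, 742 CPM, at 3 or 4 UMIs and stands at 1613 CPM at 5 or more, against 2284 CPM at 0.

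The costimulation list, of signals T cells read beside class II, stood at 486 CPM in VEGF/LysM members and 456 in the others. Its ligands Cd80 and Cd86 had 0 UMIs in the members of both libraries, which allows up to 3.41 CPM in VEGF/LysM and 53.7 CPM in WT, and in VEGF/LysM they had 3 and 0 UMIs in the others. Cd40, the receptor for a T-cell ligand, was called higher in VEGF/LysM, at 43.2 against 27.7 CPM (0.64, 0.11 to 1.14), and stood at 89.5 against 37.8 CPM in WT (1.24, -0.39 to 2.48, 5 UMIs). Cd274, the inhibitory ligand PD-L1, stood at 69.3 against 61.6 CPM (0.17, -0.24 to 0.56). Of the list 12 genes were in the files, 5 were measured in VEGF/LysM and 1 was called. Over all genes measured there 1.67% were called higher.

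Of 16 leukocyte adhesion and NF-kB genes, 8 were measured in VEGF/LysM, 6 had an interval above 1 and 2 were called, both higher, with a median of 0.39. Over all measured genes there 6.13% had an interval above 1 and 1.67% were called higher. Vcam1, which holds lymphocytes to the vessel wall, stood at 60.2 against 24.3 CPM (1.31, 0.84 to 1.75), from 18 of 277 members. The doublet alternative left out 5.78% of VEGF/LysM members and 2.93% of the others, and 12.5% and 5.36% in WT. Without these cells of highest doublet score Vcam1 was 0.59 (-0.01 to 1.15), so that call rested on such cells. In WT all 6 Vcam1 UMIs of the members lay in 1 cell. Tnfaip3, an inhibitor of NF-kB, stood at 48.9 against 23.5 CPM (1.06, 0.55 to 1.54). With the rule on thinned cells, which leaves 90 members, Vcam1 was -0.16, Tnfaip3 -0.02 and Cd40 -0.09. Icam1 stood at 73.9 against 52.4 CPM (0.50, 0.10 to 0.87). Of the immediate-early list, whose genes respond to handling and stimulation, 13 were measured and 1, Ier3, was called (0.82), with a median of 0.18.

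Genes of continuous capillaries were lower in VEGF/LysM members as a group, and in WT 2 of 8 measured genes were called lower, Cd36 and Fabp4. The WT list had 6 ratios under 1 and 2 above it, with a median of -0.30. In VEGF/LysM 14 of 14 listed genes were measured, 6 were called lower and 12 had an interval below 1, with a median of -0.51. Over all measured genes there 3.68% were called lower and 6.98% had an interval below 1, and in WT 4.37% were called lower. Cd36, the fatty-acid uptake receptor, stood at 1000 CPM in members and 2212 in the others (-1.15, -1.25 to -1.05) in VEGF/LysM, and at 483 and 1310 CPM (-1.44, -2.04 to -0.90) in WT. Fabp4, a fatty-acid binding protein, stood at 5279 against 7787 CPM in VEGF/LysM (-0.56, -0.60 to -0.52) and at 1611 against 3886 CPM in WT, where it was called (-1.27, -1.59 to -0.97). Car4, a membrane carbonic anhydrase, stood at 55.7 against 135 CPM in VEGF/LysM (-1.28, -1.72 to -0.87) and had 0 UMIs in WT members, against 84.6 CPM in the others. Rbp7, Aqp7, Timp4 and Tcf15 were called lower in VEGF/LysM too, at -1.21, -1.14, -1.35 and -0.65. Ly6a, a surface marker that interferons induce, stood higher (0.50, 0.41 to 0.59). In VEGF/LysM cells with 0, 1, 2, 3 or 4, and 5 or more class II UMIs, Cd36 stood at 2284, 1680, 937, 742 and 1613 CPM. The summed list stood at 16402, 14250, 11557, 11457 and 15062 CPM in the same order. The 52 cells with 5 or more were thus nearer to the cells with 0 than those with 2 to 4 were. When the other cells were weighted to the members' mix of clusters, the median of the list was 0.03, Cd36 -0.11, Car4 -0.22 and Fabp4 0.12. In WT, Cd36 was then -0.13 and Fabp4 -0.42. Under that weighting the class I median was 0.47, the type I median 0.27 and the interferon gamma median 0.51.

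In VEGF/LysM, members were scarcer in the continuous capillary-like clusters than in the other clusters together. The 5611 WT and 3448 VEGF/LysM cells that met the endothelial and leukocyte limits were clustered without class II, class I and interferon genes. The 8 leukocyte genes of the rule were left out too, while Pecam1, Cdh5, Kdr and the other leukocyte genes were not. The clusters thus did not use the class II UMIs that the rule counted. Cluster 4, led by Car4, Lpl and Cd36 and named continuous capillary-like from its markers, held 17 members among 669 VEGF/LysM cells (2.54%, 1.49 to 4.04%) and 1 among 698 WT cells. It held 6.14% of the VEGF/LysM members and 20.6% of the other cells. In the fenestrated-like cluster 9, with Npr3, Esm1 and Cyp26b1 among its leading genes, 62 of 619 VEGF/LysM cells were members (10.0%, 7.77 to 12.7%). Cluster 2, led by Gimap3 and Enpp6, reached 14.3% (28 of 196), cluster 1, led by Igfbp5 and Peg3, 12.1% (27 of 223), and cluster 6, with Sema3d and Bgn, 9.88% (33 of 334). The tip-like cluster 11, with Apln and Kcne3, stood at 6.44% (13 of 202) and the arterial-like cluster 0, with Npnt, Tspan8 and Lgr5, at 8.19% (19 of 232). Cluster 8, named lymphatic-like, where lymphatic genes (Ccl21a, Mmrn1, Lyve1) and the venous gene Vwf were both among the leading genes, stood at 15.7% (8 of 51, 7.02 to 28.6%). The intervals of clusters 0, 1, 2, 6, 8, 9 and 11 overlapped one another, and that of cluster 4 lay below all of them except that of cluster 11.

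After thinning, 4.03% of the 596 VEGF/LysM cells of cluster 4 held a class II UMI, against 12.2% of 565 in cluster 9, 16.9% of 189 in cluster 1 and 14.0% of 186 in cluster 2. Over both clusters named continuous capillary-like (4 and 5), 2.45% of 734 VEGF/LysM cells were members, and over the other clusters 9.54% of 2714. In WT these shares were 0.128% (1 of 780) and 0.642% (31 of 4831). The highest WT shares were 2.76% (6 of 217, 1.02 to 5.92%) in the arterial-like cluster and 4.76% (2 of 42, 0.582 to 16.2%) in cluster 8. The plot of member shares by cluster shows that the VEGF/LysM share was above the WT share in all 13 clusters drawn, with intervals that overlapped in clusters 0, 5, 8 and 14. These shares are of raw counts, and the VEGF/LysM cells were deeper. After thinning, the share with at least 2 class II UMIs was lower in VEGF/LysM than in WT in cluster 8, at 2.08% (1 of 48) and 4% (1 of 25), and 0 in both libraries in clusters 5, 10 and 14.

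**Figure D5:**
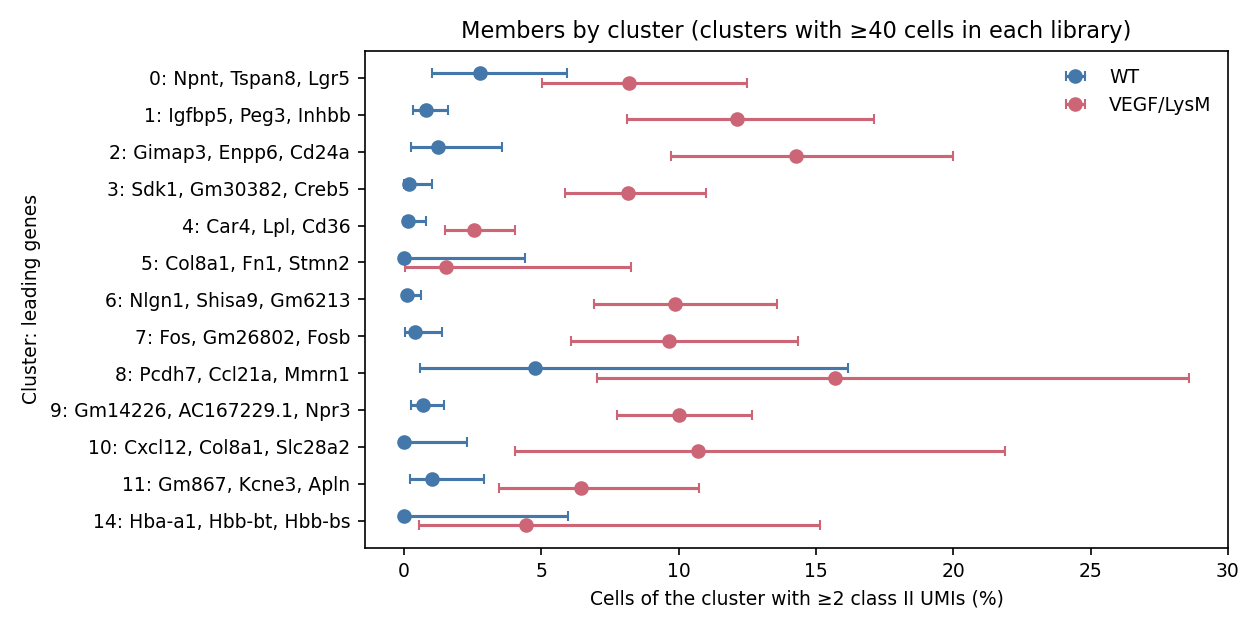
Percent of the cells of each cluster that were members in the WT and VEGF/LysM libraries, for clusters with at least 40 cells in each library; bars are exact binomial 95% intervals and labels give the 3 leading genes. Cluster 4 stands at 2.54% in VEGF/LysM and most other clusters between 6.44% and 15.7%.

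Genes of other vessel types followed no single direction. Over all measured genes 1.67% were called higher and 3.68% lower in VEGF/LysM, and 3.44% and 4.37% in WT. Of 11 fenestrated genes 0 were called in VEGF/LysM, with a median of 0.07. Plvap, the protein of fenestral diaphragms, stood at 1406 against 956 CPM (0.56, 0.47 to 0.64) in VEGF/LysM and at 1020 against 989 CPM in WT (0.04, -0.36 to 0.42), and at 0.25 in VEGF/LysM with the members' cluster mix. WT Sdk1, listed with them, was called lower (-1.41). Of 9 measured venous genes 9 had a ratio above 1 and 1 was called, Sema3d, a guidance molecule, at 102 against 52.5 CPM (0.96, 0.62 to 1.29). Sema3d had 0 UMIs in WT members, against 86.1 CPM in the others. Vwf stood at 14.8 against 11.1 CPM (0.41), with an interval that included 0. The venous median was 0.39. It was 0.01 with the members' cluster mix and 0.01 with the rule on thinned cells, where Sema3d was 0.35 (-0.50 to 1.09). In WT 2 venous genes were measured, both with a ratio under 1, and Nr2f2 was called lower (-0.77), with a median of -0.87. Of 18 measured arterial genes 5 were called lower in VEGF/LysM (Mgp, Fbln5, Fbln2, Hey1 and Clu), with a median of -0.10. In WT 2 of the 19 listed arterial genes were measured, with 0 called and a median of 0.09. Of these, 1 had a ratio above 1 and 1 a ratio under it. The arterial genes Sema3g and Npnt were higher in WT members (1.53, 0.90 to 2.10, and 2.62, 1.77 to 3.36), from 12 and 5 of 32 cells, and Lgr5 was higher through 1 cell with 10 UMIs. Those 3 genes were below the limit for a measured gene in WT. Other unmeasured genes of the list lay on both sides, such as Ptn above and Sox17 below. Of 11 measured tip genes 2 were called lower (Apln and Lamb1), and of 2 measured lymphatic genes 0. Some genes listed for 3 other kinds of cell were called lower in VEGF/LysM members. These were 4 of 4 measured haemoglobin genes, Rgs5 of the mural list (1 of 1) and the adrenocortical Cyp11a1 and Hsd3b1 (2 of 7). Yet Rgs5 was also a leading gene of the continuous capillary-like cluster 5, and the erythroid-like cluster 14 held Cd36 at 7144 CPM. Whether less RNA of other cells lay behind these calls was not tested. Summed, the adrenocortical list stood at 472 against 568 CPM and the mural list at 18.2 against 46.9 CPM.

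Over all genes, few calls could be compared between the libraries. Of the 154 genes called higher in VEGF/LysM 6 were measured in WT, and 3 of these had the same sign there. Of the 340 called lower 13 were measured in WT and 13 had the same sign. Only 1 gene was called higher in both, Lmo2, a transcription cofactor of endothelial and blood development, at 612 against 405 CPM in VEGF/LysM (0.60, 0.46 to 0.73) and 716 against 447 CPM in WT (0.68, 0.19 to 1.13). Called lower in both were Cd36, Dach1, Cdh13, Cav1 and Hbb-bs. Cdh13, an adiponectin-binding cadherin, stood at 148 against 407 CPM in VEGF/LysM (-1.46) and 71.6 against 252 in WT (-1.81). Cav1, the coat protein of caveolae, stood at 431 against 649 CPM (-0.59) and 143 against 516 CPM (-1.85), and at 0.14 in VEGF/LysM with the members' cluster mix.

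The genes that led each direction in VEGF/LysM were named after their values were seen. The highest nearer bounds belonged to Tox (39.8 against 14.1 CPM, 1.49, 0.90 to 2.05), a nuclear factor best known in T cells and found here in 19 of 277 members, and Lepr, the leptin receptor (100 against 41.9 CPM, 2.38-fold, log2 interval 0.90 to 1.59), found in 50 of 277 members and 231 of 3171 others. Lepr stood at 107 against 32.0 CPM in WT (1.75, 0.29 to 2.89, 6 UMIs). Tll1, a metalloprotease, and Igf1, a growth factor, stood at 0.92 and 1.02. The lower list was led by Caln1, Cacnb2 and Ptprd. These are leading genes of cluster 13, a group of 25 VEGF/LysM cells of which 1 was a member, and Caln1 had 0 UMIs in members against 58.2 CPM in the others.

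Members of the 2 libraries were also compared with each other. Of 9156 genes measured between them 106 were called higher in VEGF/LysM members (1.16%) and 213 lower (2.33%), which rests on 32 WT cells. Counting error alone leaves some intervals on 1 side of equal levels, so these shares are not read as a difference by themselves. No called share of the other endothelial cells between the libraries is given beside them. Cyp26b1, which breaks down retinoic acid, stood at 483 CPM in WT members and 78.4 in VEGF/LysM members (-2.62, -3.28 to -1.92). In the other endothelial cells it stood at 387 and 109 CPM (-1.83, -1.94 to -1.72), and against the others of its own library it was 0.32 (-0.28 to 0.86) in WT and -0.48 (-0.85 to -0.12) in VEGF/LysM. Fabp4 stood at 1611 and 5279 CPM in members (1.71, 1.41 to 2.03) and at 3886 and 7787 CPM in the others (1.00, 0.98 to 1.02). B2m was 0.54 (0.26 to 0.82) between the members and 0.23 (0.20 to 0.26) between the others, and Psmb8 1.17 (0.23 to 2.32) and 0.69 (0.57 to 0.80). Plvap stood at 1020 and 1406 CPM (0.46, 0.08 to 0.87), and at 989 and 956 CPM in the others. The median class II count per member was 2 UMIs in WT and 3 in VEGF/LysM. In CPM the class II genes were not higher in VEGF/LysM members. Cd74 stood at 519 CPM in WT members and 448 in VEGF/LysM members (-0.21, -0.76 to 0.38), and H2-Aa at 340 and 152 CPM (-1.16, -1.86 to -0.38). The limit of 2 UMIs is a larger share of a shallower cell, so these levels are partly set by the rule and are given as a description.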

How the data were processed

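The deposited matrices held raw UMI counts per gene and cell. The submitters' processing notes name Cell Ranger 7.0.1, Seurat and the mm10 build, and the header of the deposited matrices names Cell Ranger 7.0.0. The sources used here do not give the annotation release, the cell-calling settings or the use of intronic reads. The WT file held 6276 barcodes (8606348 UMIs) and the VEGF/LysM file 3807 (10323972 UMIs). The libraries shared 10 barcodes, 1 of them a member. Of 54838 gene identifiers 54809 matched GENCODE M21.

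UMIs were summed over the cells of a set and scaled to CPM (Python 3.11.15, NumPy 2.4.6, SciPy 1.17.1). Ratios have exact conditional binomial intervals, levels exact Poisson and shares Clopper-Pearson intervals, all at 95%. No p-value was computed, since each group had 1 library. Genes of the rule and mitochondrial genes were left out of counts of calls. The calling step was run on simulated independent Poisson counts with known fold changes. These counts follow the model of the intervals and leave out UMIs shared within a cell, so the run cannot show how such UMIs affect the calls. Cells were clustered with scanpy 1.11.5 and Leiden (igraph 0.11.9) at resolution 1, and names came from marker lists. Doublets were kept. In an alternative, the top Scrublet scores were left out (16 of 277 VEGF/LysM and 4 of 32 WT members), since the automatic threshold marked 0 WT and 3 VEGF/LysM barcodes.

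Named genes were those of the rule, list members called in both libraries and then those of highest level, genes called in both libraries over all genes, and Ciita, B2m, Plvap, Cd36, Fabp4, Vwf, Cyp26b1 and the class II machinery. The rule named 1 further gene, which is not reported here. Others named as examples were chosen after their values were seen. The members, the 19 gene lists and the rule were chosen with earlier results of these data known.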

Additional observations from a re-analysis of the deposited data

Results flagged for a closer look

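For 2 listed genes the member ratio lay on opposite sides of 1 in the libraries, with neither interval including 1. Nr2f2, a venous transcription factor, stood at 0.16 (log2, 0.01 to 0.31) in VEGF/LysM and at -0.77 (-1.61 to -0.04) in WT, where the members held 15 UMIs. With the rule on thinned cells the VEGF/LysM value was -0.17. Emcn, a capillary and venous sialomucin, stood at 0.14 (0.08 to 0.20) in VEGF/LysM and at -0.25 in WT, with an interval from -0.52 to just under 0. The difference between the libraries was not tested.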

How the results depend on the processing

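The VEGF/LysM share exceeded the WT share under all 11 alternatives, by 4.09 to 28.2 times (14.1 as reported). It was 6.57% without members carrying any of 30 leukocyte genes. At class II limits of 1, 3 and 5 UMIs the shares were 4.26%, 0.214% and 0.0535% in WT and 17.4%, 4.12% and 1.51% in VEGF/LysM. With the rule on thinned cells the VEGF/LysM share was 2.93%, and in continuous capillary-like clusters 0.612% (WT 0%) against 3.22% elsewhere. In addition, 2 choices were added after seeing the data: barring 25 leukocyte genes and leaving out shared barcodes.

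Counts of called genes followed the limits. At class II limits of 1, 3 and 5 UMIs, WT members had 94, 19 and 2 genes higher and 138, 13 and 5 lower, and VEGF/LysM members against WT members 298, 40 and 10 higher and 337, 141 and 60 lower. VEGF/LysM members had 123 lower at 5 UMIs, 210 on thinned cells and 210 with the members' cluster mix. WT members had 21 higher with the cluster mix, and 140 genes were lower between the members on thinned cells. A looser fold limit gave 69 higher in WT and 370 higher and 522 lower in VEGF/LysM, and a 2-fold limit gave 6 and 26 in WT and 14 and 176 in VEGF/LysM. Requiring 20 expected UMIs gave 20 higher and 29 lower in WT and 92 higher in VEGF/LysM, and 5 gave 72 and 88 in WT. Means over cells gave 269 higher in VEGF/LysM and 361 lower between the members.

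Among called genes and list medians with an interval that excluded 0, signs turned in VEGF/LysM as follows. At a class II limit of 5 UMIs, Cd40 was -0.28, Mgp 0.73, Dach1 0.087, Cav1 0.21 and the venous median -0.078. On thinned cells Cd40 was -0.091, Vcam1 -0.16 and Tnfaip3 -0.019. With the members' cluster mix Tcf15 was 0.18, Cav1 0.14 and the continuous capillary median 0.032. Among others, of genes not called, Cxcl9 (0.58) and Fabp4 (0.12) turned with the cluster mix, Ciita (-0.47), Iigp1 (-0.33), Cd274 (-0.29) and Cxcl10 (-0.78) on thinned cells, and Cd274 (-0.12) and Cxcl10 (-0.83) without any of 30 leukocyte genes. The cause of these changes was not tested. On thinned cells the leukocyte genes were read after thinning, so some of those members held one in the unthinned counts. No paired analysis was possible because each group had 1 library. The 32 WT members limit what could be measured there to 1075 genes.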
